A study of Mus musculus with 12 samples.

Results

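The genes of sterol and fatty acid synthesis were examined in HSPC, MEG and ERY, 3 cell populations of the mouse fetal liver. The set holds 31 genes, chosen by name: 7 enzymes that lead from acetyl-CoA units to squalene, 9 that turn squalene into cholesterol, 5 regulators of the SREBP system, 3 enzymes of fatty acid synthesis, and 7 that lengthen or desaturate fatty acids. All 31 were among the 19937 genes represented on the arrays, and all 31 were among the 12066 genes tested. HSPC, the stem and progenitor population labelled HSC in the deposit, were lineage-negative fetal liver cells sorted for Sca1 and were not cultured. ERY, the erythroblasts, were purified directly from fetal liver with beads against Ter119, an antigen of maturing red cells. MEG, the megakaryocytes, were grown in culture from KIT-positive fetal liver progenitors, by expansion and then differentiation, and enriched with beads against CD41. All livers came from E14.5 embryos, and each population was profiled on 4 arrays from what the study's methods call biological replicates. No strain, genotype or sex is stated in the labels, and culture was part of the MEG population alone, so culture and lineage cannot be told apart.

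Cells make cholesterol from acetyl-CoA through mevalonate and squalene, and they make fatty acids from the same building block through malonyl-CoA. Both pathways are controlled by the SREBP transcription factors, which are held in the endoplasmic reticulum by SCAP and the INSIG proteins when sterols are plentiful and are carried to the Golgi by SCAP and activated there when sterols run low. Megakaryocytes enlarge their membranes greatly before they shed platelets, whereas erythroblasts become smaller as they mature, and the fetal liver around them also holds hepatocytes, which make lipids themselves.

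Levels are log2 values after RMA, a summary of all probes of a gene that scales the arrays to one another. A difference of 1 is a 2-fold change. The median over all probe sets ranged from 5.99 to 6.25 between arrays. A gene was tested if the highest of its 3 population means was at least 6.18, the 95th percentile of that value over 1027 olfactory receptor genes, and the means of all 31 genes of the set reached it in every population. On single arrays *Scd1* was under it on HSPC arrays 3 and 4 and *Cyp51* on HSPC array 4. A gene was called higher or lower if the difference exceeded 2-fold at a false discovery rate (FDR) under 5% in limma, adjusted over all genes tested. The labelled cell types showed in their markers: 11 of 12 tested platelet and megakaryocyte genes rose in MEG against HSPC, and 12 of 12 red cell genes rose in ERY. Hepatocyte genes also moved. Of 14, 13 rose and 0 fell in ERY against HSPC, and 12 fell in MEG. The summed level of the 14 genes was 12.8 to 14.4 in HSPC, 14.7 to 15.4 in ERY and 10.03 to 11.17 in MEG, where 9 of them, *Alb* and *Afp* included, were under the limit for testing. Myeloid granule genes were high in HSPC: of 10 tested, 7 fell in MEG and 8 in ERY, with median differences of -3.22 and -4.01. The 12 matched ones summed to 14.1 to 14.4 in HSPC, 9.48 to 12.5 in MEG and 9.63 to 10.3 in ERY. Of 12 tested macrophage genes, 8 rose and 1 fell in ERY. The 13 matched ones summed to 12.07 to 13.02 in ERY, 12.3 to 12.8 in HSPC and 12.6 to 13.9 in MEG. These sums lean on *Lyz2*, the highest of them in HSPC and MEG, with means of 11.49, 12.3 and 8.96 in HSPC, MEG and ERY. The median level of the 13 went another way, at 8.16 to 9.21 on ERY arrays, 6.59 to 7.44 in HSPC and 6.66 to 7.53 in MEG. Set against ERY, 6 of the 12 tested were lower in MEG and 2 higher. The part of these hepatocyte, myeloid and macrophage genes in the results on sterol and fatty acid genes was not tested. Because the samples are bulk RNA, a change in the share of a cell type and a change of RNA per cell cannot be told apart.

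In MEG, 10 of the 31 genes were higher and 2 lower than in HSPC, where 14.2% and 18.7% of all genes tested were called higher and lower. The median difference of the 31 genes was 0.77, beside -0.18 over all genes tested. In ERY, 3 genes were higher and 7 lower than in HSPC, where the shares over all genes tested were 14.0% and 20.2%, and the median difference was -0.30 beside -0.12. Between the lineages, MEG exceeded ERY for 11 genes and ERY exceeded MEG for 0, where the shares over all genes tested were 14.6% and 12.6%. The median difference of MEG from ERY was 0.86, beside -0.04 over all genes tested, and 30 of the 31 differences were above 0. The MEG and ERY comparisons with HSPC share the 4 HSPC arrays, and the comparison of MEG with ERY does not use them to form the difference. In all, 19 of the 31 genes were called in at least 1 comparison and 12 in none. The same shares over all genes tested apply to the counts by role that follow.

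**Figure D1:**
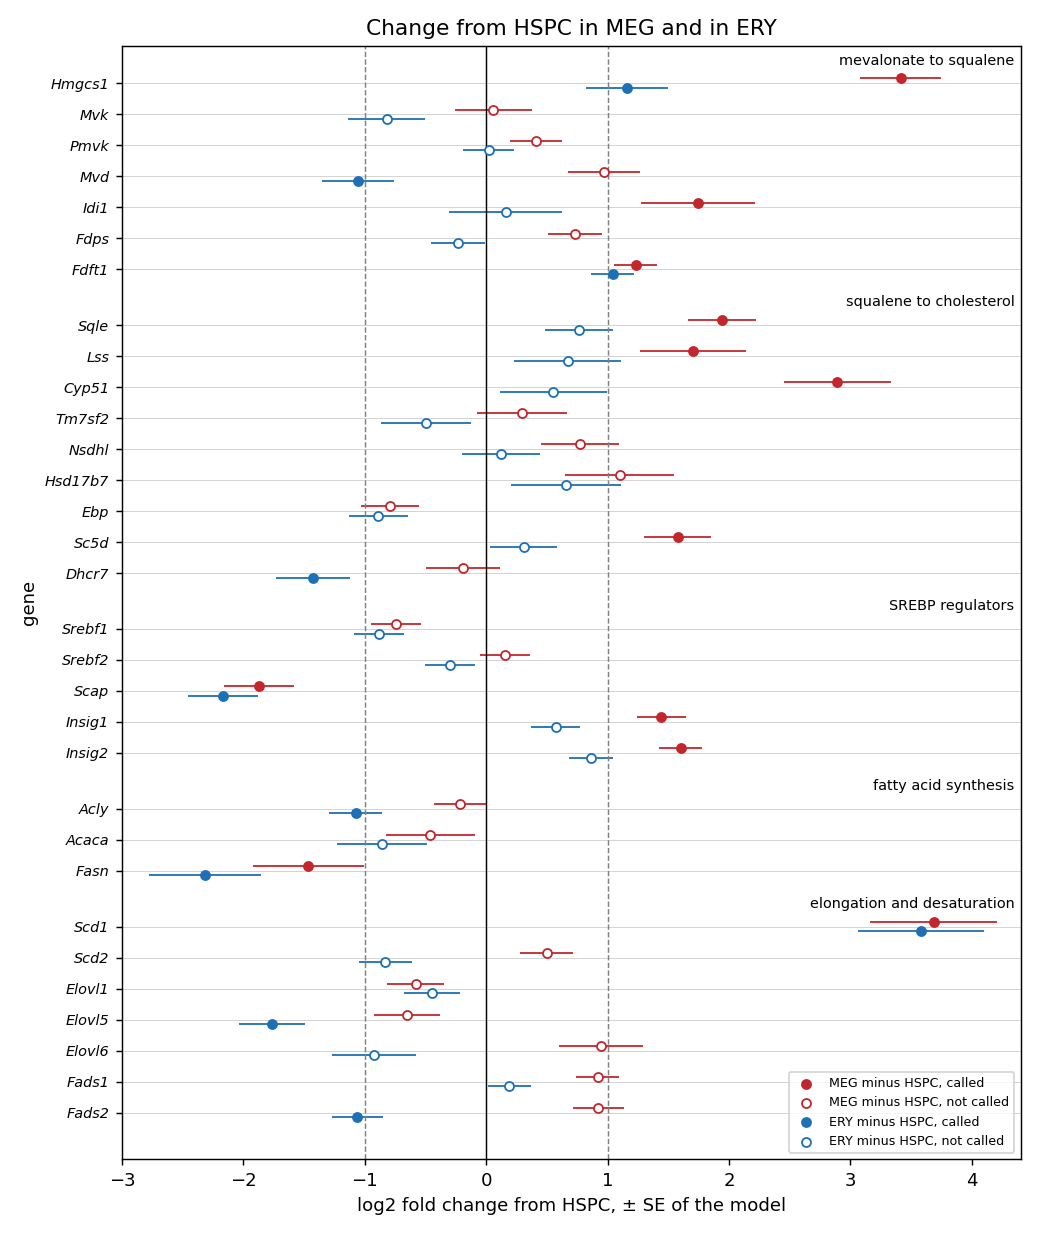
Log2 fold change from HSPC of each of the 31 genes in MEG (red) and ERY (blue), with bars of ± 1 standard error from the model on 4 arrays per population; filled points were called and the dashed lines mark a 2-fold change. *Scd1* and *Hmgcs1* lie above 3 in MEG, *Scap* and *Fasn* lie below -1 in both lineages, and MEG points lie to the right of ERY points for all genes except *Elovl1*.

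These counts depend on how the arrays are scaled. RMA scales the arrays to one another, but the deposited values did not share one distribution. The median over all probe sets ranged from 5.99 to 6.25 between arrays. Over all genes tested it was 7.71, 8.03, 8.14 and 7.61 on MEG arrays 1 to 4. With 56 ribosomal protein genes as the centre of each array instead, the median of all genes tested moved by 0.59 in MEG and 0.45 in ERY against HSPC, and by 0.14 for MEG against ERY. Then 19 members were higher and 1 lower in MEG (61.3% and 3.2%, beside 26.5% and 7.39% of all genes tested). In ERY 8 were higher and 3 lower (25.8% and 9.7%, beside 22.5% and 11.1%), a turn in balance that all genes tested shared. The share of higher genes among all genes called went from 43.1% to 78.2% in MEG and from 40.9% to 66.9% in ERY, where centring on the tested genes gave 53.9%, with 4 members higher and 4 lower and a shift of 0.22. Relative to the median of all genes tested, the median of the 31 genes was 0.95 in MEG and -0.18 in ERY against HSPC, and 0.91 for MEG against ERY, which a centring cannot alter. Under quantile normalization these values were 1.02, -0.16 and 0.94.

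Of the 7 enzymes of the mevalonate branch, 3 rose and 0 fell in MEG, 2 rose and 1 fell in ERY, and set against ERY, 3 were higher in MEG and 0 lower. *Hmgcs1* encodes the cytosolic HMG-CoA synthase, which commits acetyl units to mevalonate. Its level was 8.68, 8.17, 7.01 and 6.85 on HSPC arrays 1 to 4, 10.90, 11.16, 11.23 and 11.08 on the MEG arrays, and 9.08, 8.90, 8.76 and 8.61 on the ERY arrays. The MEG arrays lay close together above all others, and HSPC arrays 1 and 2 lay far above HSPC arrays 3 and 4. *Hmgcs1* rose by 3.41 ± 0.34 (SE) in MEG, a 10.7-fold change (adjusted p = 4.5e-06), and by 1.16 ± 0.34 in ERY (adjusted p = 0.0108), and it was 2.26 ± 0.34 higher in MEG than in ERY (adjusted p = 0.000104). The ERY and HSPC arrays overlapped, and the call in ERY was lost without HSPC array 3 (0.94) or HSPC array 4 (0.88).

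The promoter of *Hmgcs1* is shown because it was the only one of the member promoters examined that held the sterol regulatory element searched for, the letters TCACNCCAC on either strand. The stretch is the 250 bases before the RefSeq start of transcription, chr13:119690101-119690350 of GRCm38.p6, plus strand, written 5′ to 3′, with the match in capitals.
*Hmgcs1*: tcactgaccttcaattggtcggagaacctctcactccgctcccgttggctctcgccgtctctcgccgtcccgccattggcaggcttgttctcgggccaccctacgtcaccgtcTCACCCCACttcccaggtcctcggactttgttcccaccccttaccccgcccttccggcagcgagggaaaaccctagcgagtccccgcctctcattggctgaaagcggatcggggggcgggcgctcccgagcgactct
The match starts at -137 from the start site. The stretch also holds ATTGG, the reverse complement of the CCAAT box, at -237, -176 and -45, and the GC box as CCGCCC at -92 and as GGGCGG at -24.

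*Mvd*, whose enzyme decarboxylates mevalonate diphosphate to isopentenyl diphosphate, parted between the lineages. It measured 7.56, 8.17, 8.88 and 9.02 on HSPC arrays 1 to 4, 8.83, 9.74, 9.63 and 9.32 on the MEG arrays, and 7.38, 7.40, 7.23 and 7.38 on the ERY arrays. All ERY arrays lay below all HSPC arrays, while MEG and HSPC overlapped. *Mvd* fell by 1.06 ± 0.29 (SE) in ERY (adjusted p = 0.00872), its difference in MEG was 0.97 ± 0.29 (adjusted p = 0.014), under the 2-fold limit, and it was 2.03 ± 0.29 higher in MEG than in ERY (adjusted p = 8.55e-05). The ERY call was lost without HSPC array 3 (-0.90) or HSPC array 4 (-0.85). It was also lost with quantile normalization (-0.97) and with centring on the tested genes (-0.84) or on ribosomal protein genes (-0.60).

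*Idi1*, which interconverts the isoprenoid building blocks isopentenyl and dimethylallyl diphosphate, stood at 8.42 ± 0.81 (SD, n = 4) in HSPC, 10.16 ± 0.94 in MEG and 8.58 ± 0.51 in ERY. It rose by 1.74 in MEG (adjusted p = 0.00702) and was 1.58 higher in MEG than in ERY (adjusted p = 0.0148). The latter call was lost without ERY array 2 (1.36). A second probe set annotated to *Idi1* had means of 7.32, 11.04 and 8.53 in HSPC, MEG and ERY. Its differences from HSPC were 3.72 in MEG and 1.22 in ERY, where the probe set used gave 1.74 and 0.16. Its MEG level was 2.51 above ERY, beside 1.58 for the probe set used. *Fdft1*, the squalene synthase, rose in both lineages, from 10.03 ± 0.25 in HSPC to 11.26 ± 0.26 in MEG and 11.07 ± 0.11 in ERY (adjusted p = 0.000101 and 0.000304). The rise in ERY was 1.04, and it went to 0.93 without HSPC array 1, under the 2-fold limit. *Fdps*, which builds farnesyl diphosphate, stayed under the 2-fold limit, at 10.26 ± 0.13 in HSPC, 10.99 ± 0.50 in MEG and 10.03 ± 0.16 in ERY. The kinases of mevalonate and phosphomevalonate, *Mvk* and *Pmvk*, were not called in any comparison. *Mvk* stood at 8.34 ± 0.51, 8.40 ± 0.70 and 7.52 ± 0.12 in HSPC, MEG and ERY, and *Pmvk* at 7.06 ± 0.34, 7.47 ± 0.37 and 7.08 ± 0.08.

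**Figure D2:**
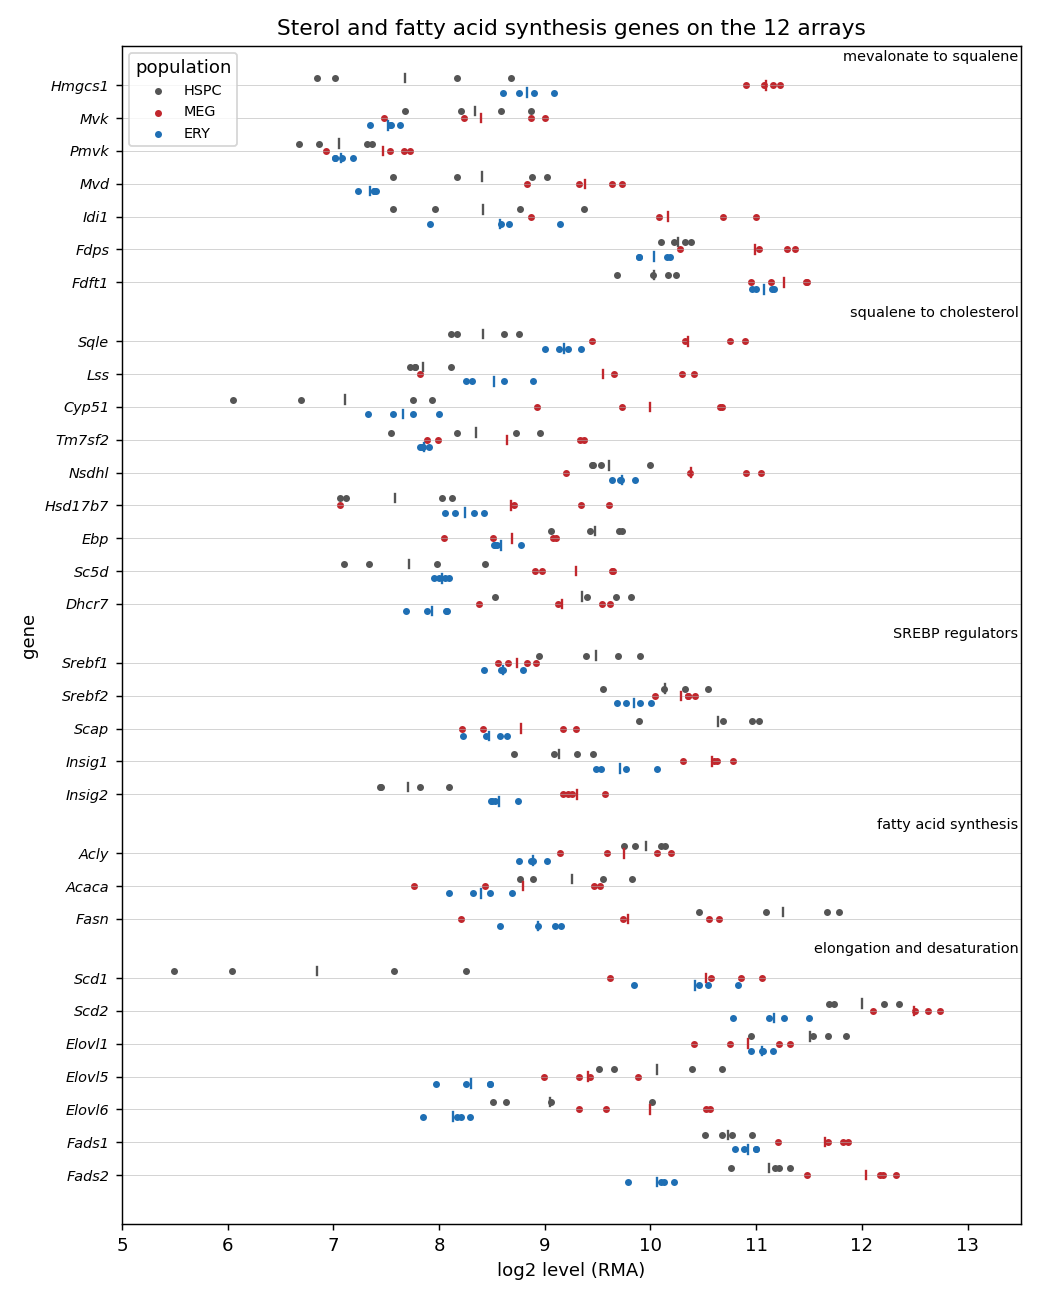
Log2 levels after RMA of the 31 genes on each of the 12 arrays, grouped by role, with HSPC in grey, MEG in red and ERY in blue; each point is 1 array and each short line the mean of 4. ERY arrays lie close together (median SD of the 31 genes 0.16), while HSPC and MEG arrays spread more widely (0.43 and 0.50).

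Of the 9 enzymes from squalene to cholesterol, 4 rose and 0 fell in MEG, 0 rose and 1 fell in ERY, and set against ERY, 4 were higher in MEG and 0 lower. *Cyp51* encodes the demethylase of lanosterol. It measured 7.93, 7.75, 6.70 and 6.05 on HSPC arrays 1 to 4, 8.93, 10.68, 10.65 and 9.73 on the MEG arrays, and 8.0, 7.32, 7.56 and 7.76 on the ERY arrays. Every MEG array lay above every HSPC and ERY array, with MEG array 1 the lowest of the 4. *Cyp51* rose by 2.89 ± 0.44 (SE) in MEG, a 7.42-fold change (adjusted p = 0.000153), and was 2.34 ± 0.44 higher in MEG than in ERY (adjusted p = 0.00074), while its difference of ERY from HSPC was 0.55 ± 0.44 (adjusted p = 0.319).

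*Sqle*, the squalene epoxidase and a rate-limiting step of the pathway, measured 8.62, 8.76, 8.17 and 8.12 on HSPC arrays 1 to 4, 9.44, 10.90, 10.75 and 10.33 on the MEG arrays, and 9.13, 9.01, 9.22 and 9.35 on the ERY arrays. The 3 populations did not overlap, in the order HSPC, ERY, MEG. *Sqle* rose by 1.94 ± 0.28 in MEG (adjusted p = 9.96e-05) and was 1.18 ± 0.28 higher in MEG than in ERY (adjusted p = 0.004). Its difference of ERY from HSPC, 0.76 ± 0.28, passed the FDR (adjusted p = 0.0351) but not the 2-fold limit. The call between MEG and ERY was lost without MEG array 2 (0.996).

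*Lss*, which closes the rings of lanosterol, rose from 7.85 ± 0.18 in HSPC to 9.55 ± 1.198 in MEG (adjusted p = 0.00549), and its ERY level was 8.52 ± 0.29. Its MEG SD was the largest of the 31 genes in that population, since MEG array 1 stood at 7.82 and the other 3 MEG arrays between 9.65 and 10.42. *Sc5d*, a sterol desaturase, rose from 7.72 ± 0.61 to 9.29 ± 0.41 in MEG (adjusted p = 0.000438), where its level was 1.27 above that of ERY, 8.02 ± 0.06 (adjusted p = 0.00222). *Dhcr7*, the reductase of the last step of one branch, went the other way in ERY. It fell by 1.43 there, from 9.35 ± 0.58 to 7.93 ± 0.18 (adjusted p = 0.00167), whereas it stood at 9.16 ± 0.57 in MEG, 1.23 above ERY (adjusted p = 0.00532). With ribosomal protein centring its difference in ERY was -0.97, under 2-fold. The remaining 4 were not called in any comparison. *Hsd17b7*, a ketoreductase of the demethylation steps, had a difference of 1.10 in MEG that missed the FDR (adjusted p = 0.0559), with 7.58 ± 0.57 in HSPC, 8.68 ± 1.14 in MEG and 8.24 ± 0.17 in ERY. *Nsdhl*, which acts in the same steps, stood at 9.61 ± 0.26, 10.38 ± 0.84 and 9.73 ± 0.09 in HSPC, MEG and ERY, and *Tm7sf2*, a sterol reductase, at 8.35 ± 0.63, 8.65 ± 0.82 and 7.85 ± 0.03. *Ebp*, which shifts a ring double bond, was lower than HSPC in both lineages at an adjusted p of 0.0142 in MEG and 0.00736 in ERY but under 2-fold, with 9.48 ± 0.31, 8.69 ± 0.51 and 8.59 ± 0.12.

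The regulators of the SREBP system moved in different directions in MEG against HSPC: 2 rose, 1 fell and 2 were not called. In ERY, 0 rose and 1 fell. *Insig1* and *Insig2* encode the proteins that hold SCAP and the SREBPs in the endoplasmic reticulum, and *Insig1* is itself a known SREBP target. *Insig1* measured 9.46, 9.30, 9.09 and 8.71 on HSPC arrays 1 to 4, 10.78, 10.60, 10.63 and 10.31 on the MEG arrays, and 9.48, 9.54, 9.77 and 10.06 on the ERY arrays. *Insig2* measured 8.10, 7.82, 7.46 and 7.44 on the HSPC arrays, 9.57, 9.26, 9.18 and 9.22 on the MEG arrays, and 8.53, 8.75, 8.49 and 8.51 on the ERY arrays. For each of them all MEG arrays lay above all ERY arrays, and those above all HSPC arrays. *Insig1* rose by 1.44 ± 0.20 in MEG (adjusted p = 7.59e-05), and its ERY difference was 0.57 ± 0.20 (adjusted p = 0.0284). *Insig2* rose by 1.60 ± 0.18 in MEG (adjusted p = 1.46e-05), and its ERY difference was 0.86 ± 0.18 (adjusted p = 0.00134). Both ERY differences stayed under the 2-fold limit.

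*Scap*, the escort of the SREBPs to the Golgi, was lower in both lineages. It measured 9.90, 10.68, 10.96 and 11.03 on HSPC arrays 1 to 4, 8.41, 9.29, 9.17 and 8.22 on the MEG arrays, and 8.57, 8.22, 8.44 and 8.64 on the ERY arrays. No MEG or ERY array reached the lowest HSPC array. *Scap* fell by 1.87 ± 0.29 in MEG (adjusted p = 0.000163) and by 2.17 ± 0.29 in ERY (adjusted p = 3.87e-05), a 4.50-fold change, and its difference of MEG from ERY was 0.30 ± 0.29 (adjusted p = 0.447).

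The genes of the SREBP factors themselves were not called in any comparison. *Srebf2*, whose product chiefly drives sterol synthesis, measured 9.55, 10.12, 10.32 and 10.54 on HSPC arrays 1 to 4, 10.35, 10.42, 10.35 and 10.04 on the MEG arrays, and 9.69, 10.01, 9.77 and 9.90 on the ERY arrays. *Srebf1*, whose product chiefly drives fatty acid synthesis, measured 8.95, 9.39, 9.69 and 9.90 on the HSPC arrays, 8.56, 8.83, 8.92 and 8.65 on the MEG arrays, and 8.59, 8.42, 8.60 and 8.79 on the ERY arrays. The *Srebf2* differences from HSPC were 0.15 ± 0.21 in MEG (adjusted p = 0.549) and -0.30 ± 0.21 in ERY (adjusted p = 0.25). *Srebf1* differed from HSPC by -0.74 in MEG and -0.88 in ERY, with no overlap of arrays and adjusted p of 0.00773 and 0.00254, but under 2-fold. These are mRNA levels, and the cleaved, active SREBP proteins were not measured.

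The 3 enzymes of fatty acid synthesis did not rise in either lineage: 0 rose and 1 fell in MEG, 0 rose and 2 fell in ERY, and all 3 differences of MEG from ERY were above 0 but not called. *Fasn* encodes the fatty acid synthase, which makes palmitate. It measured 10.46, 11.10, 11.67 and 11.79 on HSPC arrays 1 to 4, 8.21, 10.65, 10.55 and 9.74 on the MEG arrays, and 9.15, 8.58, 8.93 and 9.09 on the ERY arrays. The ERY arrays lay below every HSPC array, whereas MEG arrays 2 and 3 lay above HSPC array 1. *Fasn* fell by 2.32 ± 0.46 in ERY, a 4.98-fold change (adjusted p = 0.000897), and by 1.46 ± 0.46 in MEG (adjusted p = 0.0163). Without MEG array 1 the difference in MEG was -0.94, past the FDR (adjusted p = 0.0297) but under 2-fold. Without HSPC arrays 3 and 4 it was -0.99 (adjusted p = 0.171), and with ribosomal protein centring -0.87. The call in MEG was lost in each case.

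*Acly*, whose enzyme supplies cytosolic acetyl-CoA from citrate, measured 10.14, 10.10, 9.86 and 9.75 on HSPC arrays 1 to 4, 9.15, 10.06, 10.19 and 9.59 on the MEG arrays, and 8.87, 8.76, 8.89 and 9.02 on the ERY arrays. MEG overlapped HSPC, and ERY lay below both. *Acly* fell by 1.07 ± 0.22 in ERY (adjusted p = 0.00104), and its difference in MEG was -0.21 ± 0.22 (adjusted p = 0.428). The call in ERY was lost with centring on the tested genes (-0.85) or on ribosomal protein genes (-0.62). Array weights (-0.95) or leaving out HSPC arrays 1 and 2 (-0.92) also took it under 2-fold. *Acaca*, the acetyl-CoA carboxylase that makes malonyl-CoA, was not called, with 9.26 ± 0.51 in HSPC, 8.80 ± 0.85 in MEG and 8.40 ± 0.25 in ERY.

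Among the 7 elongases and desaturases, 1 rose and 0 fell in MEG, 1 rose and 2 fell in ERY, and set against ERY, 4 were higher in MEG and 0 lower. *Scd1*, a desaturase that makes monounsaturated fatty acids, had the largest rise of the 31 genes in each lineage. It measured 8.26, 7.57, 5.49 and 6.04 on HSPC arrays 1 to 4, 9.62, 10.57, 11.05 and 10.86 on the MEG arrays, and 10.83, 9.84, 10.46 and 10.55 on the ERY arrays. Both lineages lay above every HSPC array. The HSPC arrays themselves spread widely (SD 1.29), with arrays 1 and 2 above arrays 3 and 4, which were under the limit for testing. *Scd1* rose by 3.68 ± 0.52 in MEG, a 12.9-fold change (adjusted p = 8.38e-05), and by 3.58 ± 0.52 in ERY, an 11.9-fold change (adjusted p = 8.11e-05), and MEG and ERY differed by 0.11 ± 0.52 (adjusted p = 0.896). *Scd2*, its paralog, was not called against HSPC, at 11.997 ± 0.33 in HSPC, 12.49 ± 0.27 in MEG and 11.17 ± 0.30 in ERY, and was 1.33 higher in MEG than in ERY (adjusted p = 0.000233).

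*Fads2*, the desaturase of the first step from linoleic acid to longer polyunsaturated fatty acids, measured 10.76, 11.22, 11.18 and 11.32 on HSPC arrays 1 to 4, 11.48, 12.20, 12.32 and 12.17 on the MEG arrays, and 10.23, 9.79, 10.10 and 10.13 on the ERY arrays. The populations did not overlap, with MEG above HSPC and ERY below. *Fads2* fell by 1.06 ± 0.21 in ERY (adjusted p = 0.00085), and was 1.98 ± 0.21 higher in MEG than in ERY (adjusted p = 4.24e-06), while its difference in MEG, 0.92 ± 0.21 (adjusted p = 0.0024), was under 2-fold. The call of the fall in ERY was lost without HSPC array 4 (-0.99) or ERY array 2 (-0.97). It was also lost with centring on the tested genes (-0.84) or on ribosomal protein genes (-0.61). *Fads1*, the desaturase of a later step, was not called, at 10.73 ± 0.18 in HSPC, 11.65 ± 0.30 in MEG and 10.92 ± 0.10 in ERY.

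*Elovl5*, an elongase of polyunsaturated fatty acids, fell by 1.76 in ERY (adjusted p = 0.000132), from 10.06 ± 0.56 to 8.30 ± 0.24, and stood at 9.41 ± 0.37 in MEG, 1.11 above ERY (adjusted p = 0.00477). The latter call was lost without ERY array 2 (0.9997) or MEG array 3 (0.95), or with centring on the tested genes (0.98). *Elovl6*, which lengthens palmitate to stearate, was 1.87 higher in MEG than in ERY (adjusted p = 0.00063), at 9.999 ± 0.64 against 8.13 ± 0.20. HSPC lay between them at 9.05 ± 0.68, and neither difference from HSPC reached 2-fold (0.95 and -0.92, adjusted p = 0.0346 and 0.0384). *Elovl1*, an elongase of saturated very long chains, was not called, at 11.50 ± 0.39 in HSPC, 10.92 ± 0.42 in MEG and 11.06 ± 0.09 in ERY. It was the 1 gene of the 31 whose MEG level was not above ERY, by -0.13 (adjusted p = 0.692).

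Seen across the roles, the 16 sterol enzymes had 7 higher (43.75%) and 0 lower in MEG against HSPC. In ERY, 2 were higher and 2 lower (12.5% each). The 10 enzymes of fatty acid synthesis, elongation and desaturation had 1 higher and 1 lower in MEG, and 1 higher and 4 lower in ERY. Median differences from HSPC were 1.04 for the sterol enzymes and 0.14 for the fatty acid enzymes in MEG, and 0.14 and -0.89 in ERY. Between MEG and ERY, 7 of the 16 (43.75%) and 4 of the 10 (40.0%) were higher in MEG, beside 14.6% of all genes tested, with medians of 0.997 and 0.86. No test between these groups of genes was made.

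The arrays of MEG against HSPC did not overlap for 12 genes. All 4 MEG arrays lay above all HSPC arrays for 10 (32.3%, beside 13.4% of all genes tested) and below them for 2, *Scap* and *Srebf1* (6.45%, beside 26.7%). In ERY, 6 genes lay wholly above HSPC (19.4%, beside 18.6%) and 13 wholly below (41.9%, beside 32.5%). For 16 genes all MEG arrays lay above all ERY arrays (51.6%, beside 23.2%), and for 0 they lay wholly below (24.7% of all genes tested). *Srebf2*, *Fdps*, *Insig1*, *Insig2*, *Acly* and *Fads1* were among the 16 although their differences were under 2-fold.

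The median SD of the 31 genes over the MEG arrays was 0.50, beside 0.32 for all genes tested. MEG array 1 was the lowest of the 4 MEG arrays for 26 of the 31 genes (83.9%), beside 29.9% of all genes tested, and MEG arrays 2 and 3 both exceeded arrays 1 and 4 for 27 (87.1%), beside 43.9%. The median deviation of the 31 genes from their MEG mean was -0.60 on array 1, 0.36 on array 2, 0.40 on array 3 and -0.08 on array 4. *Elovl5*, *Hmgcs1* and *Mvd* were also lowest on array 1, while *Insig1* and *Insig2* were highest there. Without MEG array 1, the counts in MEG were 16 higher and 1 lower against HSPC, beside 13.6% and 17.4% of all genes tested. Against ERY they were 18 higher and 0 lower, beside 15% and 12.1%. In HSPC the 31 genes split: arrays 1 and 2 both exceeded arrays 3 and 4 for 16 of them (51.6%, beside 39.9% of all genes tested), *Hmgcs1*, *Cyp51* and *Scd1* among them, and both lay below for 12 (38.7%, beside 44.5%), *Mvd*, *Scap* and *Fasn* among them. Hepatocyte markers in HSPC were highest on array 2, with a median level of 9.95, beside 8.15, 8.42 and 8.91 on arrays 1, 3 and 4. In MEG they were between 5.34 and 5.93 on all 4 arrays. Markers of myeloid cells did differ between the MEG arrays: of the 12 myeloid granule genes, 10 were lowest on MEG array 1 and 12 highest on MEG array 3, with medians of 5.88, 6.61, 8.09 and 6.25 on MEG arrays 1 to 4. Of the 13 macrophage genes, 6 were lowest on array 1 and 11 highest on array 3, with medians of 6.96, 6.66, 7.53 and 6.82. Their part in the spread of the 31 genes was not tested. Without HSPC arrays 1 and 2, the counts against HSPC were 12 higher and 4 lower in MEG, beside 20.8% and 22.8% of all genes tested.

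**Figure D3:**
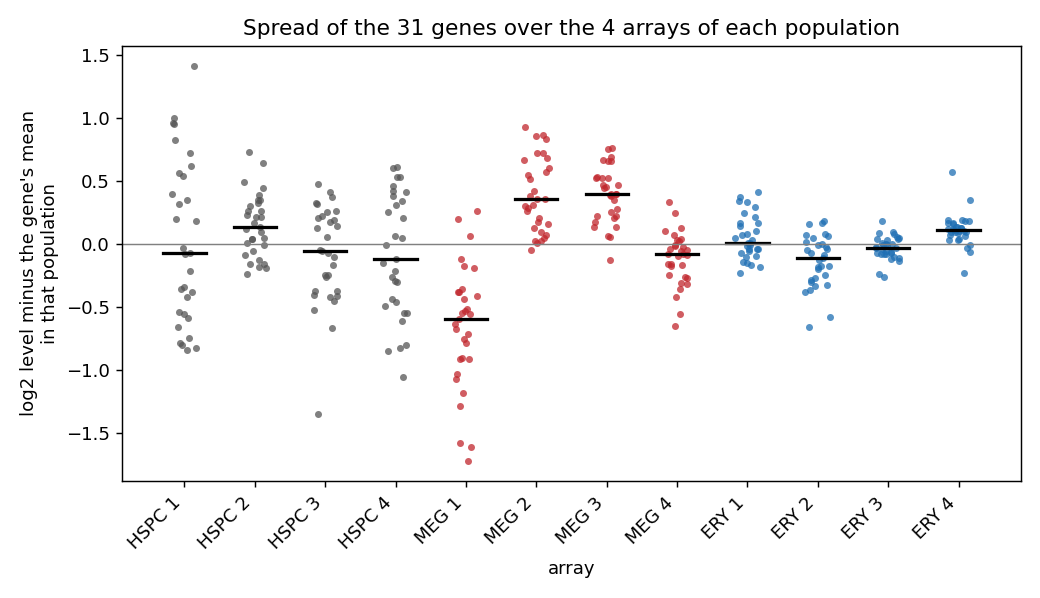
Deviation of each of the 31 genes on each array from the gene's mean over the 4 arrays of its population, on the log2 scale; points are genes and black lines their medians. MEG array 1 has a median of -0.60, and the ERY medians lie between -0.11 and 0.11.

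Other genes of lipid metabolism were taken from 7 lists of 87 genes, of which 71 matched and 61 were tested. In MEG against HSPC 14 were higher and 11 lower, in ERY against HSPC 11 were higher and 12 lower, and in MEG against ERY 13 were higher and 8 lower. The shares over all genes tested were 14.2% and 18.7%, 14.0% and 20.2%, and 14.6% and 12.6%. The medians of the 61 genes were -0.14, -0.04 and 0.12. Of the 3 tested genes of the list of other sterol and isoprenoid enzymes, *Ggps1*, which makes geranylgeranyl diphosphate on the branch that does not lead to sterols, rose in both lineages (2.16 in MEG, adjusted p = 0.000501, and 2.12 in ERY, adjusted p = 0.000504), *Msmo1*, the sterol methyl oxidase that works with *Nsdhl* and *Hsd17b7*, rose in MEG (2.98, adjusted p = 1.59e-06), and *Cyp27a1*, a sterol hydroxylase of bile acid and oxysterol formation, fell in both (-1.18 and -1.29, adjusted p = 0.000283 and 0.000114). These 3 are named after their values were seen. *Msmo1* stood at 8.01 ± 0.61 in HSPC, 10.99 ± 0.27 in MEG and 8.56 ± 0.10 in ERY.

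Of 8 genes of sterol uptake, transport and storage, 1 rose and 0 fell in MEG, 0 rose and 2 fell in ERY. Of 6 genes of sterol efflux and the LXR receptors, which answer to sterol excess, 1 rose and 3 fell in MEG and 2 rose and 2 fell in ERY. Of 5 other genes of SREBP processing, 1 rose and 1 fell in MEG and 1 rose and 0 fell in ERY. Of 15 further genes of fatty acid supply and elongation, 4 rose and 1 fell in MEG and 3 rose and 3 fell in ERY. *Elovl7*, an elongase, had the largest change of the 61 genes in MEG: it stood at 6.30 ± 0.19 in HSPC, 10.18 ± 0.37 in MEG and 5.51 ± 0.20 in ERY, a rise of 3.88 (adjusted p = 1.64e-08), and 4.66 above ERY (adjusted p = 7.29e-10). The ERY level of *Elovl7* was under the limit for testing. *Elovl2*, another elongase, differed by -2.06 in MEG from ERY (adjusted p = 1.11e-06). It stood at 6.83 ± 0.08 in ERY, and at 5.40 ± 0.38 in HSPC and 4.77 ± 0.14 in MEG, both under that limit.

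Of 14 tested genes of glycerolipid assembly, 5 rose and 4 fell in MEG, and 3 rose and 3 fell in ERY. *Agpat3*, an acyltransferase, rose by 3.35 in MEG (adjusted p = 5.79e-08) and was 2.46 above ERY (adjusted p = 3.35e-07). *Agpat2*, of the same family, fell by 2.03 in MEG (adjusted p = 6.91e-05) and fell by 3.19 in ERY (adjusted p = 9.91e-07). *Pcyt1a*, the regulatory enzyme of phosphatidylcholine synthesis, and *Lpin2*, a phosphatidate phosphatase, had the largest rises of the 14 genes in ERY, by 2.79 and 2.35 (adjusted p = 2.07e-05 and 1.24e-05). Both also rose in MEG, by 2.14 and 1.31 (adjusted p = 0.000223 and 0.00137). Their differences of MEG from ERY were -0.65 (adjusted p = 0.156, not called) for *Pcyt1a* and -1.03 (adjusted p = 0.00773) for *Lpin2*. *Lpcat1*, which rebuilds phosphatidylcholine from its lyso form, differed by -3.26 in MEG from ERY (adjusted p = 5.22e-08), and *Lpcat2* fell by 2.02 in MEG and fell by 2.10 in ERY (adjusted p = 0.00471 and 0.00358). Of 10 genes of fatty acid oxidation, 0 rose and 1 fell in MEG, and 1 rose and 1 fell in ERY.

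Promoters were compared over RefSeq windows of 300 bases, from 250 before to 50 after the start, of GRCm38.p6. Of the 31 genes, 25 had at least 1 window, 34 windows in all, and *Fads1*, *Fdft1*, *Fdps*, *Scd1*, *Scd2* and *Sqle* were not among them. *Fads1*, *Fads2* and *Tm7sf2*, as well as *Scd1* and *Scd2*, lie on chromosome 19, so that the genes on 1 chromosome included *Scd1*, which rose in both lineages, and *Fads2*, which fell in ERY. The sterol regulatory element TCACNCCAC was found in 1 of 25 genes (4.0%, *Hmgcs1*), beside 1.41% of tested genes with a window. The CCAAT box, searched as CCAAT and its reverse complement, was found in 21 (84.0%), beside 42.2% of the 9660 tested genes with a window and 41.1% of all genes with one. The GC box GGGCGG, on either strand, was found in 20 (80.0%), beside 67.7% of tested genes and 38.2% of all. The palindromic E-box CACGTG was found in 6 (24.0%), beside 11.7% of tested genes. No test was made of these shares. The search was for exact letters, with no overlap between the letters of these motifs required or excluded, and a match does not show binding. The genes without a CCAAT box in their windows were *Acaca*, *Elovl6*, *Fads2* and *Scap*.

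**Figure D4:**
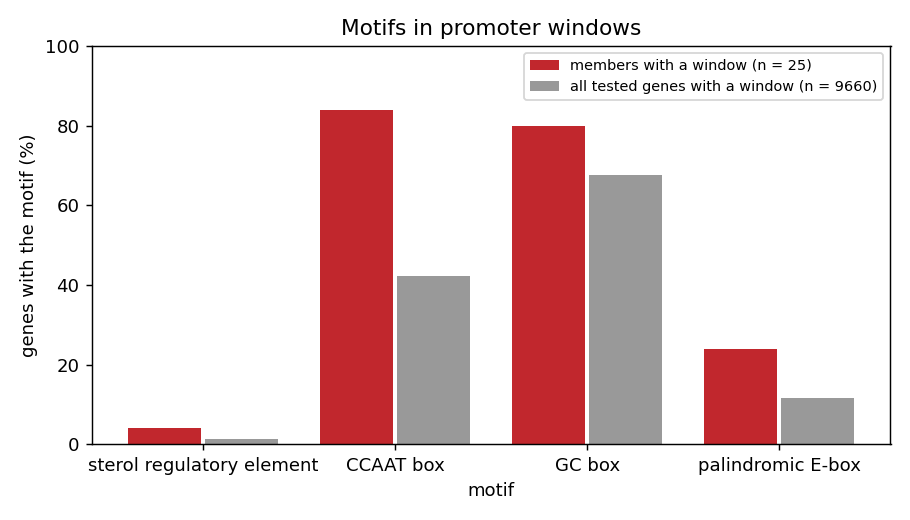
Percent of genes whose promoter window of 300 bases holds each motif, for the 25 members with a window (red) and the 9660 tested genes with one (grey); bars start at 0. The CCAAT box was held by 84.0% of members and 42.2% of tested genes.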

How the data were processed

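Total RNA of HSPC, MEG and ERY was hybridized to Affymetrix Mouse Gene ST arrays, 4 per population, and per the labels it was extracted with Trizol and labelled with biotin. For every probe set the authors deposited a log2 value of each array, made by RMA per their processing notes. Its version, its settings and the genome build: not given in the sources used here. RMA scales the arrays to one another, so a change is relative to the other genes of an array. No raw intensities were used, and RMA was not repeated. The number of arrays, 4 per population, limits the precision.

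Of 34760 probe sets, 21640 carried 1 gene symbol in the platform annotation, 1321 several and 11799 none here. Of the 954 genes with more than 1 probe set, the one with the highest mean was used. limma 3.58.1 in R 4.3.3 was fitted with 1 mean per population on all 12 arrays, with eBayes and Benjamini-Hochberg adjustment over 12066 genes, a fold threshold of 2 and an FDR of 5%. The fit was tested on simulated data. Promoters were searched and figures drawn with pandas 2.3.3, numpy 2.4.6 and matplotlib 3.10.9 under Python 3.11.15.

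The members and gene lists were chosen with earlier results of these data known. Values per array are given for the 2 members of each role with the largest difference and for the SREBP regulators, other members by mean ± SD, and of the other lists the 2 genes with the largest called change in each direction. Alternatives covered the arrays used, the level limit, scaling, probe sets, variance model, test and thresholds. The sample titles give replicate numbers but no pairing, and the main fit did not pair arrays by number.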

Additional observations from a re-analysis of the deposited data

Results flagged for a closer look

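In 5 of 93 groups of 4 arrays, 1 array stood apart from the other 3, and chance alone flags about 1 in 20 such groups. These were *Mvd* on ERY array 3, at 7.23 with the nearest array at 7.38; *Lss* on HSPC array 2, at 8.11 with the nearest at 7.78; *Nsdhl* on HSPC array 2, at 10 with the nearest at 9.53; *Ebp* on ERY array 4, at 8.77 with the nearest at 8.54; and *Insig2* on ERY array 2, at 8.75 with the nearest at 8.53.

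For 3 genes the changes from HSPC in MEG and in ERY went opposite ways and each passed the FDR, and the difference between the changes, which is the difference of MEG from ERY, passed the thresholds. It was 2.03 for *Mvd*, 1.87 for *Elovl6* and 1.98 for *Fads2*. The smaller of the changes from HSPC was under 2-fold in each case, and for *Elovl6* both changes were. *Scd2* also went opposite ways, by 0.50 in MEG (adjusted p = 0.0704, past no threshold) and -0.83 in ERY, with a called difference of 1.33 between MEG and ERY.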

How the results depend on the processing

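Each comparison was repeated under 28 alternatives. No call changed direction. Of 33 called differences, 12 kept their call under every alternative and 10 lost it only in the test against the 2-fold threshold (treat). The counts of members moved as follows, and the cause was not tested unless the alternative itself gives it. Shares over all genes tested moved as well and stand in brackets. Against HSPC, the 10 genes higher in MEG (14.2%) became 19 with ribosomal protein centring (26.5%) and 5 with treat (4.77%). They became 10 to 16 with 1 array left out, where 16 came without MEG array 1 (13.6%). The 2 lower ones (18.7%) became 4 without HSPC arrays 1 and 2 (22.8%) or at 1.5-fold (29.9%). They became 1 with ribosomal protein centring (7.39%) or an FDR of 1% (17.9%), 0 with treat (4.89%), and 1 to 2 with 1 array left out. In ERY, the 3 higher ones (14%) became 5 without HSPC arrays 1 and 2 (20.1%), with array weights (19.4%) or at 1.5-fold (18.8%). They became 8 with ribosomal protein centring (22.5%), 1 with treat (5.41%), and 2 without HSPC array 1 (17.1%), HSPC array 3 (12.3%) or HSPC array 4 (12.1%). The 7 lower ones (20.2%) became 4 with centring on tested genes (15.3%), 3 with ribosomal protein centring (11.1%), 2 with treat (7.58%) and 12 at 1.5-fold (30.2%). With 1 array left out they ranged from 6 without ERY array 2 (19.4%) to 10 without HSPC array 1 (22.5%). Without HSPC arrays 1 and 2 they were 9 (23.2%). For MEG against ERY, the 11 higher ones (14.6%) became 19 with array weights (16.4%), 17 at 1.5-fold (20%) and 4 with treat (6.31%). They became 10 to 18 with 1 array left out, where 18 came without MEG array 1 (15%). With the replicate number as a block the counts were 10 and 2, 3 and 7, and 11 and 0, the same as without it. Of 12 pairs of the same number 5 correlated above 0.1, between -0.35 and 0.37. *Idi1* in MEG against HSPC went to 1.09 and lost its call without HSPC arrays 3 and 4, where *Fasn* went to -0.99. No depth is defined for arrays. In every population the means of all 31 genes lay above the limit set by olfactory receptor genes, while *Scd1* on HSPC arrays 3 and 4 and *Cyp51* on HSPC array 4 lay under it.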
